A study of Mus musculus with 5 samples.

Results

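The e15.5 and e18.5 fetal liver Ago maps are 2 of the 5 samples of a mouse liver series that ran from mid-gestation to adulthood. They were chosen by their stage labels alone, and no measured value entered that choice. At both stages whole livers of C57BL/6 mice (C57BL/6J in the study's methods) were homogenised, crosslinked with ultraviolet light and immunoprecipitated with antibodies against Ago2, so that the RNA held by this Argonaute protein could be sequenced (Ago HITS-CLIP). No transgene, knockout or drug was involved, gestation was counted from the plug as e0.5, and the antibodies against Ago2 were the same at both stages. The labels describe 1 sample per stage, so no test between stages was possible and every difference below compares 1 table with 1 other.

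Late in gestation the mouse liver hands blood formation over to the bone marrow while hepatoblasts mature into hepatocytes that take up urea synthesis, gluconeogenesis, bile acid synthesis and the secretion of plasma proteins. Argonaute proteins carry miRNAs, which pair through their seed (bases 2 to 8 from the 5′ end) with short matches in mRNAs, most often in the 3′UTR, and lower translation or stability of the message. An Ago read over a transcript therefore reflects both how much of the transcript is present and how strongly it is bound. In whole liver, fewer cells of a type and less RNA per cell cannot be told apart.

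The table of e15.5 held 393130 entries and that of e18.5 held 390768, each a cluster of overlapping reads joined to a seed match of a miRNA. Joined where they overlapped, these made 81121 clusters at e15.5 and 76948 at e18.5. Reads were summed before this joining, over 86624 and 86419 clusters, which gave 16519549 and 13008703. Each table consisted of 2 lists stacked on each other, whose origin the labels do not give, and they were unequal: 13158 and 73466 clusters in the earlier table against 52524 and 33895 in the later one. The lists were joined for the main values, and each list's own value is given beside many of them, though not all, as a description and not as a replicate. Values over a gene are the highest reads of any of its clusters in a region, scaled to 1000000 summed cluster reads of the table (rpm). A gene was compared when it reached 20 reads in either table, and was called at a 2-fold difference. Hepatocyte markers and erythroid markers were both present at both stages (10 of 10 and 9 of 9 listed in the coding sequence in each table). The summed level of the hepatocyte markers was 793 rpm at e15.5 and 3141 rpm at e18.5. That of the erythroid markers was 29540 and 37600 rpm with the alpha globin gene Hba-a1, and 3458 and 1543 rpm without it. Of the other cells of the liver, the 8 myeloid and Kupffer cell markers summed to 206 rpm at e15.5 and 468 rpm at e18.5, with most of these reads in S100a9. The 4 mesenchymal markers summed to 9.08 and 22.8 rpm, while the 4 endothelial markers were level at 10.7 and 11.8 rpm. None of the 3 biliary markers was listed at e15.5 and all 3 were at e18.5, summing to 17.9 rpm. The 3 platelet markers summed to 21.6 and 2.38 rpm, nearly all of it Pf4 at e15.5. The part of these cells in the results below was not tested.

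The mature miRNAs on which the comparison turned are shown first, with the seed in capitals. The blood cell miRNAs come first, then the miRNAs that took a larger share of Ago2 at e18.5, then those that took a smaller one, and last miR-30a-5p, whose sites are described further on. All 14 sequences were taken from RefSeq (GRCm38.p6), which named 370 of the 428 miRNAs compared.
miR-142a-3p: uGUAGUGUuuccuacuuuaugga
miR-144-3p: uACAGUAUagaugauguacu
miR-451a: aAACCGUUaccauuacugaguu
miR-223-3p: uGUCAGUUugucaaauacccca
miR-16-5p: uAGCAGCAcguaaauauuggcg
let-7c-5p: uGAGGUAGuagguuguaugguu
let-7b-5p: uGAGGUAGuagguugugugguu
miR-194-5p: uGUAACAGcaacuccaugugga
miR-200b-3p: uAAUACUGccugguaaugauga
miR-429-3p: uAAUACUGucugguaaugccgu
miR-139-5p: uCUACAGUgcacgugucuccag
miR-106b-3p: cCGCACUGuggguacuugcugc
miR-144-5p: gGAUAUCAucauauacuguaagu
miR-30a-5p: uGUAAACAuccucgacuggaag

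let-7b-5p and let-7c-5p share a seed, as do miR-200b-3p and miR-429-3p, so that sites of either member of a pair cannot be assigned to 1 of them. miR-144-3p and miR-144-5p are the opposite arms of 1 hairpin.

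At both stages the miRNA reads were led by blood cell miRNAs. miR-142a-3p, made in blood cells of all lineages, was the most abundant miRNA in each table, with 37.1% of 10100639 miRNA reads at e15.5 and 23.9% of 7781484 at e18.5. Its values in the lists overlapped, being 21.6% and 42.2% for e15.5 against 21.8% and 30.2% for e18.5. The erythroid miRNA miR-144-3p stood at 10.2% and 9.58%, and miR-451a, from the same locus, at 3.53% and 2.66%. The lists of miR-451a disagreed, at 2.996% and 3.325% in the first and 3.701% and 0.716% in the second. Over the 15 blood miRNAs the summed share was 55.1% at e15.5 and 42.1% at e18.5. The other 14 without miR-142a-3p summed to 18.0% and 18.2% in the joined tables, but to 28.0% and 19.8% in the first lists, where miR-142a-3p was level and miR-144-3p stood at 19.7% and 10.8%. In the second lists they summed to 14.7% and 13.6%, with miR-144-3p at 7.04% and 6.15%. Leaving out miR-223-3p as well gave 17.6% and 15.3%. Of these 15, 3 were at least 2-fold higher and 1 at least 2-fold lower, where 22.4% of all 428 miRNAs compared were higher and 18.46% (79) lower.

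The hepatocyte miRNA miR-122-5p held 4.33% of the miRNA reads at e15.5 and 9.20% at e18.5. List by list it was 8.24% and 3.04% for e15.5 against 9.13% and 9.41% for e18.5, so both later values lay above both earlier ones, but only narrowly above the first list of e15.5. Among the 13 hepatocyte miRNAs compared, 4 were higher (against 22.4% of all miRNAs) and none lower, and their summed share was 10.8% at e15.5 and 18.0% at e18.5. miR-194-5p, another miRNA of hepatocytes, was at 1.68% and 2.46%, which is within 2-fold.

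miR-223-3p, the miRNA of granulocytes and monocytes, had the largest rise among miRNAs of at least 1000 rpm, from 0.336% to 2.87% of miRNA reads (log2 3.10). Its list values of 0.960% and 0.130% for e15.5 against 2.52% and 3.88% for e18.5 did not overlap. miR-16-5p was at 3.18% and 9.30% (log2 1.55) and was also apart, at 3.27% and 3.15% against 11.0% and 4.33%. Both lists of e18.5 were above both of e15.5 for 21.9% of the 420 miRNAs with values to compare, and below for 16.7%.

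let-7 accumulates as tissues leave the embryonic state. Of its 9 members 2 were at least 2-fold higher, which is the share seen over all miRNAs (22.4%), and none was lower. The lists of 5 members lay apart upward, against 21.9% of all miRNAs, and of none downward. let-7c-5p went from 0.999% to 2.49% (log2 1.32) and let-7b-5p was higher by 1.28 on the log2 scale. In the first lists both were nearly level, let-7c-5p at 2.08% and 2.14% and let-7b-5p at 0.302% and 0.352%. In the second lists they stood at 0.644% and 3.50%, and at 0.108% and 0.459%. Together the 9 members held 3.61% of the miRNA reads at e15.5 and 5.72% at e18.5. The 18 listed miRNAs of the imprinted Dlk1-Dio3 cluster, which is expressed mainly before birth, held 7.94% and 5.50%. None of these was called, while the lists of 8 lay apart downward, against 16.7% of all miRNAs, and of none upward. The list does not hold the whole cluster. Of 48 other miRNAs compared that RefSeq places between its members, a set made after values of the cluster were seen, 8 were called higher and 13 lower. Of all 428 miRNAs compared, 96 were called higher and 79 lower. The lists of 8 of these 48 lay apart upward and of 11 downward, against 21.9% and 16.7% of all miRNAs. Together the 48 held 1.31% and 1.08%. Within that cluster miR-136-5p stood at 4.53% and 2.89%.

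Among less abundant miRNAs, miR-139-5p was at 0.0358% and 0.209% (log2 2.55) and miR-200b-3p, an epithelial miRNA, at 0.0417% and 0.203% (log2 2.28), with its seed partner miR-429-3p higher by 1.29 on the log2 scale. Of 8 endothelial and mesenchymal miRNAs 4 were called higher and 1 lower, against 22.4% and 18.46% of all miRNAs. Among them miR-143-3p and miR-199a-3p were higher by 1.31 and 1.24 on the log2 scale, the scarce miR-10b-5p was lower (log2 -1.16), and the most abundant, miR-126a-3p of endothelium, was within 2-fold at 0.950% and 1.25%. In the other direction, miR-144-5p was at 0.358% and 0.0985% (log2 -1.86) while its partner arm miR-144-3p stayed within 2-fold. That contrast came from the second lists, with miR-144-5p at 0.425% and 0.0446% and miR-144-3p at 7.04% and 6.15%. In the first lists both arms were within 2-fold, at 0.156% and 0.117%, and at 19.7% and 10.8%. Among miRNAs of at least 1000 rpm the next falls were those of miR-106b-3p (log2 -1.77), miR-17-3p (log2 -1.45) and miR-30e-3p (log2 -1.45), and miR-15b-5p (log2 -1.01) was also called lower. miR-106b-3p and miR-17-3p come from clusters that are active in dividing cells. miR-17-3p was not lower in the first lists, where its log2 value was 0.088. Wilson 95% intervals of the miRNA shares reached at most 0.030 percentage points to either side and cover counting error only.

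**Figure D1:**
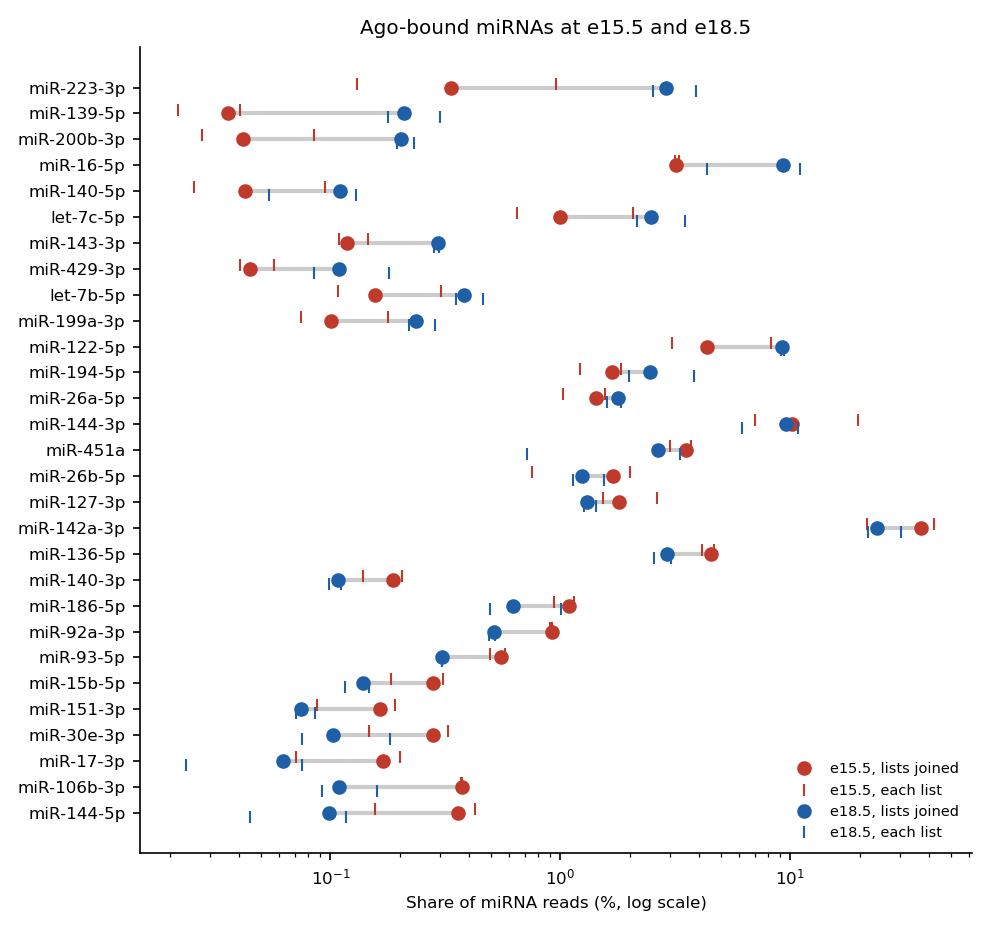
Share of miRNA reads (%, log axis) of named miRNAs at e15.5 and e18.5, with dots for the joined lists and ticks for each of the 2 lists of a stage. The ticks of miR-223-3p and miR-16-5p separate by stage, whereas those of miR-142a-3p interleave at 21.6% and 42.2% against 21.8% and 30.2%.

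The regions bound by Ago2 were alike in the joined tables but not from list to list. Of the joined clusters, 34.9% (34.6 to 35.2, Wilson 95% interval) touched coding sequence (CDS) at e15.5 and 35.0% (34.6 to 35.3) at e18.5. The 3′UTR held 22.5% (22.2 to 22.7) and 21.0% (20.7 to 21.3), and the 5′UTR 2.61% (2.51 to 2.73) and 3.25% (3.13 to 3.38). A cluster could touch more than 1 region. The intervals overlapped for the CDS and did not for the 3′UTR and 5′UTR. In the 3′UTR the lists of e15.5 differed from each other by more than the stages did, with 20.3% and 22.7% of their clusters. The 3′UTR difference of -1.47 percentage points was -2.50 between the first lists and 3.93 between the second. For the CDS the lists ranged more widely, at 30.3% and 35.8% for e15.5 against 29.1% and 46.3% for e18.5. Base composition also moved, with a mean G+C content of the 3′UTR target sequences of 46.4% at e15.5 and 48.6% at e18.5, and of the CDS targets of 50.3% and 52.3%. The lists overlapped narrowly, at 47.86% and 46.2% for e15.5 against 49.16% and 47.8% for e18.5 in the 3′UTR. In the CDS they were at 51.46% and 50.16% against 53.04% and 51.43%.

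Genes of hepatocyte metabolism carried more Ago2 reads at e18.5. Of 62 genes for liver enzymes and transporters compared in the CDS, 46 were at least 2-fold higher at e18.5 and 1 lower, with a median log2 of 2.38. Over all 8661 genes compared in the CDS, 37.0% were higher and 35.6% lower, with a median of 0.12. Distinct sites, which depend less on amplification, ran the same way: 30 of 49 genes had at least 2-fold more sites at e18.5 and 1 had fewer, against 22.8% and 29.8% of all 4236 genes with 10 sites in either table. Both lists of e18.5 lay above both of e15.5 for 34 of 52 genes and below for 3, against 30.9% and 17.0% of 5042 genes overall. In the 3′UTR 24 of 38 were higher and 6 lower, against 36.4% and 39.6% of all 6378 genes there.

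Several enzymes that mark the mature liver were barely listed at e15.5. Cyp8b1, the sterol 12-alpha-hydroxylase that sets the composition of bile acids, had 12 reads over 8 CDS sites at e15.5 and 974 over 60 sites at e18.5. Its scaled level was 2.48 and 0.993 rpm in the lists of e15.5 and 94.5 and 30.0 rpm in those of e18.5, a 103-fold difference in the joined tables. The cluster with the most reads held an 8mer match to miR-122-5p at chr9:121915254-121915275 (mm10, minus strand), shown with the bases that pair to the seed, and the A opposite base 1, in capitals.
Cyp8b1 CDS, miR-122-5p: cagtgccctgaaacACACTCCA

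Cpt1a, the carnitine palmitoyltransferase that admits fatty acids to mitochondria, was at 1.81 and 5.05 rpm in the lists of e15.5 and 95.6 and 46.7 rpm in those of e18.5. Acsl1, which activates long-chain fatty acids, was at 2.03 and 9.10 rpm against 106 and 75.2 rpm. The groups did not overlap in either gene. Acadm, the medium-chain acyl-CoA dehydrogenase, was listed only at e18.5, with 188 reads, at least 47.8-fold above the lowest listed value of 5 reads at e15.5.

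G6pc, which releases free glucose, was listed only at e18.5, with 183 reads over 15 sites. Cps1, the first enzyme of the urea cycle, had 39 sites and 190 reads at e15.5 and 219 sites and 755 reads at e18.5. Its lists did not overlap, at 42.9 and 7.78 rpm against 73.2 and 54.1 rpm. Ass1, a later step of that cycle, was 9.14-fold higher. Cyp2e1, a cytochrome P450 of drug and ethanol oxidation, had 241 reads over 48 sites at e18.5 and was not listed at e15.5 (at least 61.2-fold). Adh1, the alcohol dehydrogenase, rose from 5 to 193 reads, and Mat1a, the liver methionine adenosyltransferase, from 26 to 281. The only gene of this list called lower in the CDS was Sqle, of cholesterol synthesis. It was at 101 and 16.9 rpm in the lists of e15.5 and 8.73 and 7.41 rpm in those of e18.5.

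Of 24 hepatocyte transcription factors compared in the CDS, 18 were higher and 2 lower (median log2 2.40), against 37.0% and 35.6% of all genes. Sites were 2-fold more in 8 of 14 (22.8% of all genes). For the 3′UTR the counts were 12 of 22 higher and 5 lower, against 36.4% and 39.6%. Cebpa, which drives hepatocyte maturation, had 41 reads at e15.5 and 167 at e18.5, and Atf5, a factor abundant in liver, 72 and 740. Rxra, the partner of the nuclear receptors for bile acids and lipids, had 3′UTR values of 1.58 and 4.47 rpm in the lists of e15.5 and 63.7 and 90.4 rpm in those of e18.5. Hnf4a was mixed, since its CDS sites numbered 15 and 39 while its highest reads were 214 and 97, below a 2-fold difference. Foxo3 was lower, at 560 and 204 reads.

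Plasma protein genes formed the group with the most reads among hepatocyte genes. In the CDS 39 of 59 were higher and 4 lower (median log2 1.95), against 37.0% and 35.6% of all genes, and in the 3′UTR 23 of 42 were higher and 12 lower, against 36.4% and 39.6%. At 2-fold more sites there were 16 of 54, near the 22.8% of all genes, and at fewer 4, against 29.8%. Alb (albumin) had 209 and 224 distinct CDS sites but 1933 and 7958 reads. In the lists it was at 197 and 160 rpm for e15.5 against 772 and 318 rpm for e18.5. Ahsg (fetuin-A) was at 323 and 254 rpm against 1613 and 637 rpm, and Fga, the fibrinogen alpha chain, at 52.1 and 33.0 against 385 and 160 rpm. These lists did not overlap, but those of Ttr (transthyretin) did, at 160 and 85.4 rpm against 514 and 149 rpm, although the joined value was 6.52-fold higher. The seed matches of at least 7 bases to an abundant miRNA with the most reads in Ahsg (chr16:22892238-22892259, plus strand, 407 and 4041 reads) and Alb (chr5:90474622-90474644, plus strand, 1073 and 2528 reads) are shown as examples, and other clusters of both genes carried more reads. Serpina1a to Serpina1e share reads and are uncertain.
Ahsg CDS, let-7c-5p: ttgttggccgtggaCTACCTCA
Alb CDS, miR-19b-3p: actgtcatggatgacTTTGCACA

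Cfb, complement factor B, was at 12.6 and 6.12 rpm in the lists of e15.5 and 136 and 64.4 rpm in those of e18.5. Igfbp1, an insulin-like growth factor binding protein that the liver secretes in fasting, had 20 CDS reads at e15.5 and 517 at e18.5, and its 3′UTR value (5 and 488 reads, log2 6.95) was the largest 3′UTR rise among genes listed in both tables. Afp (alpha-fetoprotein), the albumin-like protein of fetal plasma, kept its number of CDS sites, 180 and 183, but its reads were 4138 and 1022. Its list values of 375 and 342 rpm for e15.5 against 99.1 and 89.3 rpm for e18.5 lay apart. The 3′UTR of Afp did not share this direction, with 1168 and 2706 reads. Serpina6, which carries corticosteroids in plasma, was at 467 and 167 rpm against 14.5 and 13.0 rpm, with 103 and 30 CDS sites.

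**Figure D2:**
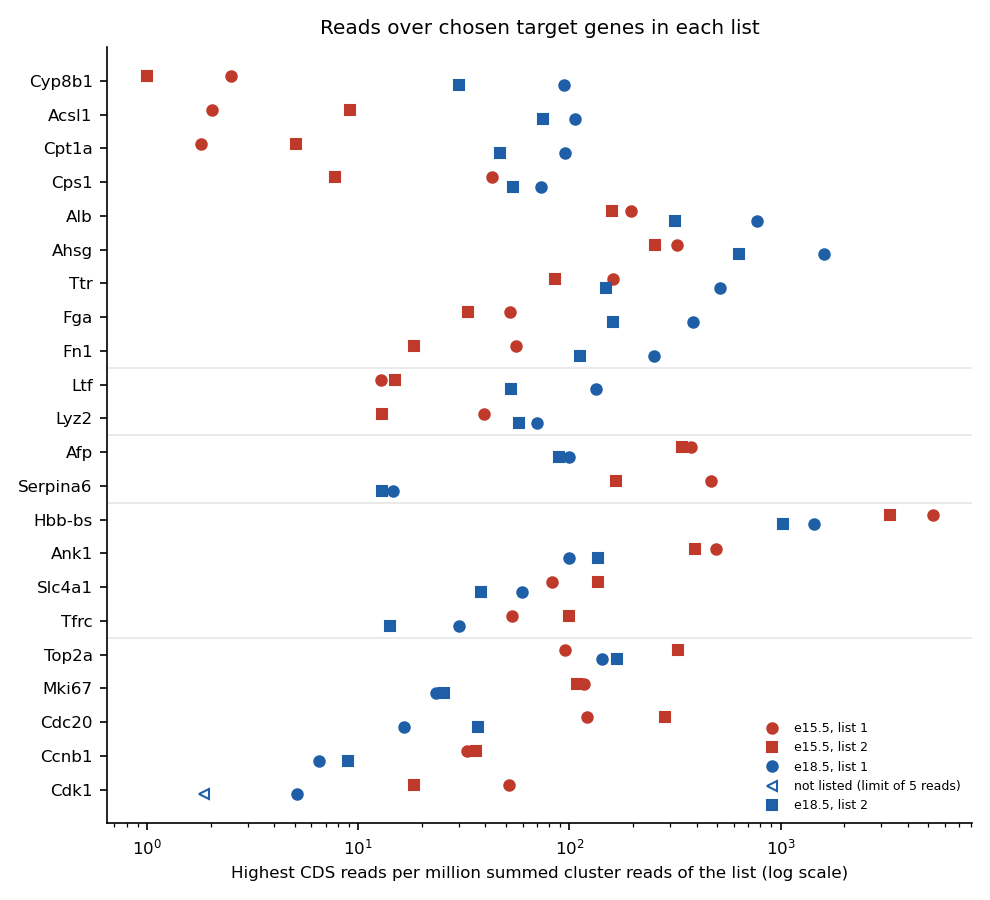
Highest CDS reads in rpm of each list (log axis) for chosen genes, with a marker per list of e15.5 and e18.5 and open arrowheads at 5 reads for a gene that a list did not hold. Cyp8b1 and Cpt1a separate upward, Ank1 and Mki67 downward.

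Erythroid genes carried fewer Ago2 reads over the CDS at e18.5. Of 40 genes for erythroid regulators and membrane proteins compared in the CDS, 20 were at least 2-fold lower and 2 higher (median log2 -1.0). The lists lay apart downward for 23 of 33 and upward for 1. In sites, 14 of 35 had 2-fold fewer at e18.5 and none had more, and their summed CDS sites were 2133 and 1413. Among all CDS genes 35.6% were called lower, 17.0% lay apart downward and 29.8% had 2-fold fewer sites. In the 3′UTR 14 of 35 were lower and 2 higher, where the share of all genes called lower was about the same (39.6%).

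Ank1, the ankyrin that ties band 3 to the red cell skeleton, had 4761 CDS reads at e15.5 and 1027 at e18.5. Its lists stood at 497 and 394 rpm against 99.6 and 136 rpm, without overlap. The cluster with the most reads held a match to miR-16-5p (chr8:23098965-23098986, plus strand), a miRNA that was itself higher at e18.5.
Ank1 CDS, miR-16-5p: acggttggcggagcTGCTGCTg

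Sptb, the spectrin beta chain of red cells, was an exception: its CDS sites numbered 140 and 70, but its highest reads were 383 and 857, and it was 1 of the 2 genes called higher. Epor, the erythropoietin receptor, was at 55.8 and 61.5 rpm in the lists of e15.5 and 10.3 and 8.15 rpm in those of e18.5. Car2, the carbonic anhydrase of red cells, had 3930 and 599 reads over 55 and 56 sites. Of the regulators, Klf1 had 33 sites and 283 reads against 8 sites and 105 reads, and Gata1 24 sites and 139 reads against 10 and 70, with the reads of Gata1 less than 2-fold lower after scaling.

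Of 19 globin and heme genes compared in the CDS, 10 were called lower and none higher (median log2 -1.09), against 35.6% of all genes lower. With 2-fold fewer sites there were 6 of 18, near the 29.8% of all genes, and none had 2-fold more. The embryonic beta-like globin Hbb-y had 21 sites and 365 reads at e15.5 and 6 sites and 7 reads at e18.5, a 41.1-fold difference. Hba-x, the embryonic alpha-like globin, had 320 and 104 reads. Adult beta globin (Hbb-bs) was at 5255 and 3304 rpm in the lists of e15.5 and 1434 and 1022 rpm in those of e18.5. The alpha globins Hba-a1 and Hba-a2 had 430946 and 469018 reads, the same in both genes, and did not differ 2-fold. Adult alpha globins, and Hbb-bs and Hbb-bt, share their reads and cannot be separated. Tfrc, which imports transferrin iron, was 3.08-fold lower, and Slc25a37, the mitochondrial iron importer of heme synthesis, had 3′UTR values of 648 and 142 rpm against 47.6 and 33.0 rpm.

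Of 52 cell cycle genes compared in the CDS 26 were lower at e18.5 and 4 higher (median log2 -0.99), against 35.6% and 37.0% of all genes, 22 of 47 lay apart downward and 5 upward, and 23 of 46 had 2-fold fewer sites with 1 having more. Over all CDS genes 17.0% lay apart downward and 30.9% upward, and 29.8% had 2-fold fewer sites. Their summed CDS sites were 2234 and 1189. In the 3′UTR 16 of 42 were lower and 6 higher, which is no larger a share than the 39.6% of all genes called lower there. Mki67, the nuclear antigen of dividing cells, had 410 and 218 sites and stood at 117 and 109 rpm in the lists of e15.5 and 23.3 and 25.6 rpm in those of e18.5. Ccnb1 (cyclin B1) was at 32.7 and 36.0 against 6.50 and 8.89 rpm, and Cdc20, an activator of the anaphase-promoting complex, at 121 and 283 against 16.5 and 37.0 rpm. Cdc6, which loads the replicative helicase, had 345 reads over 45 sites at e15.5 and was not listed at e18.5 (at least 54.3-fold lower). Top2a, the topoisomerase of dividing cells, was 2.12-fold lower in the joined tables, but higher by 0.58 (log2) in the first lists alone. Cdkn1a (p21), which arrests the cycle, was the opposite of the group with 62 and 588 reads.

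**Figure D3:**
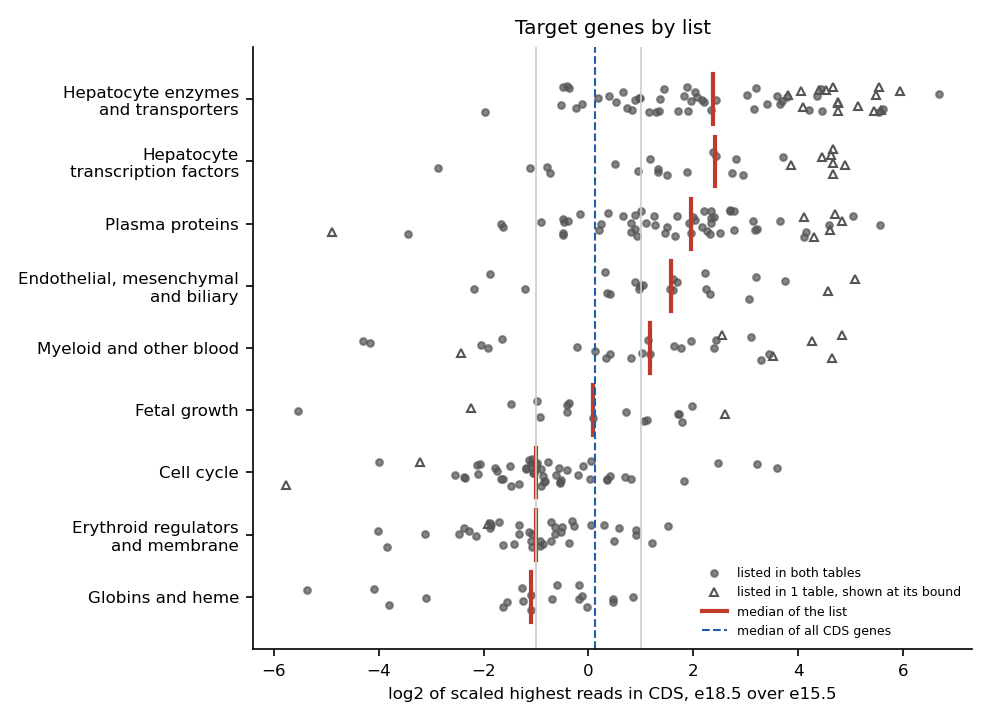
log2 of scaled highest CDS reads, e18.5 over e15.5, for each gene of the 9 lists (dots for genes in both tables, open triangles at the bound for genes in 1 table), with the median of each list as a bar and the median of all CDS genes dashed. The medians of liver enzymes (2.38) and plasma proteins (1.95) lie right of the dashed line, those of globin and heme (-1.09), erythroid (-1.0) and cell cycle genes (-0.99) left of it.

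**Figure D4:**
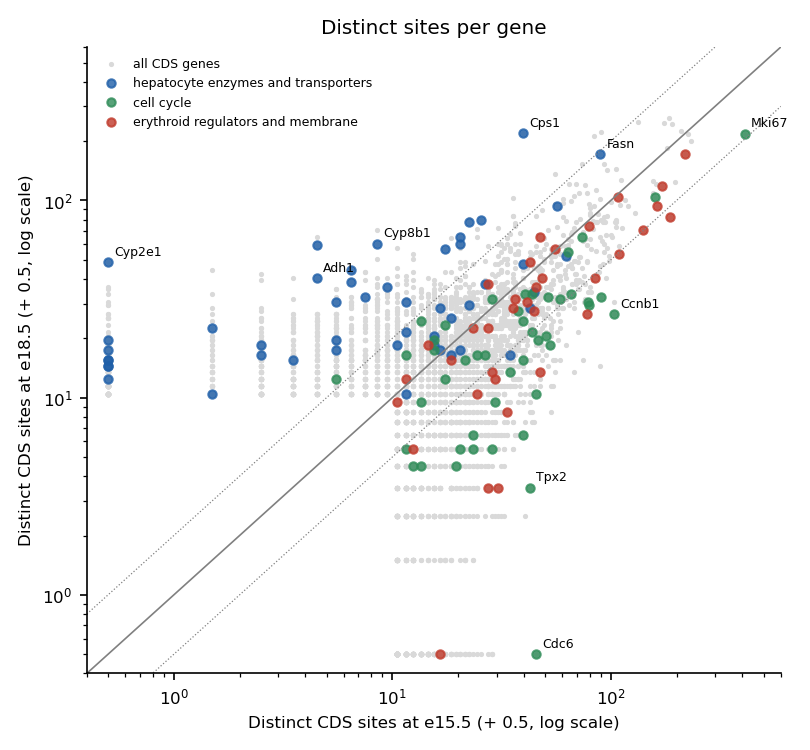
Distinct CDS sites per gene at e15.5 (x) and e18.5 (y), each plus 0.5 on log axes, with all genes of at least 10 sites in grey and members of chosen lists in colour. Liver enzymes such as Cps1 (39 and 219) lie above the diagonal and cell cycle genes such as Mki67 (410 and 218) below it.

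Blood genes outside the red cell lineage did not follow the erythroid direction. Of 27 compared in the CDS, 16 were higher and 6 lower (median log2 1.17, with 37.0% and 35.6% of all genes), 11 of 20 lay apart upward and none downward, and 9 of 19 had 2-fold more sites with none having fewer. Over all CDS genes 30.9% lay apart upward and 22.8% had 2-fold more sites. Their 3′UTRs were mixed, with 9 of 18 higher and 7 lower, against 36.4% and 39.6% of all genes there. Ltf (lactoferrin), a protein of neutrophil granules, was at 12.9 and 14.9 rpm in the lists of e15.5 and 134 and 53.0 rpm in those of e18.5. Lyz2 (lysozyme) was at 39.3 and 12.9 against 70.2 and 57.8 rpm, and S100a9, the partner of S100a8 in neutrophils, at 68.4 and 229 against 477 and 352 rpm. Camp, a neutrophil antimicrobial peptide, had 57 and 489 reads. The platelet chemokine gene Pf4 went the other way with 352 and 14 reads. Kit, the stem cell factor receptor, had 249 and 11 reads in its CDS but 45 and 371 in its 3′UTR. Ltf, Lyz2, S100a9 and Camp moved in the direction of miR-223-3p, while S100a8 (200 and 171 reads) and Mpo (155 and 153 reads) stayed within 2-fold, and whether more myeloid cells were present was not tested.

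Of 22 endothelial, mesenchymal and biliary genes compared in the CDS 13 were higher and 3 lower (median log2 1.58), against 37.0% and 35.6% of all genes, and 9 of 16 had 2-fold more sites, against 22.8%. The 4 endothelial markers above were level in sum. Fn1 (fibronectin), which hepatocytes secrete too, had 83 and 213 sites and stood at 55.8 and 18.4 rpm against 252 and 112 rpm. Vim (vimentin) had 73 and 480 reads, though its lists overlapped at 16.5 and 5.05 against 46.6 and 12.2 rpm.

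Genes of fetal growth had no common direction. Of 17 in the CDS 7 were higher and 3 lower (median log2 0.09), and of 20 in the 3′UTR 6 were higher and 8 lower. The shares of all genes were 37.0% and 35.6% in the CDS and 36.4% and 39.6% in the 3′UTR, so most of these counts were near them. Igf2bp1, an RNA-binding protein of fetal tissues and a let-7 target, had 29 sites and 293 reads at e15.5 and 6 sites and 5 reads at e18.5. Plagl2, another let-7 target, was 4.12-fold lower in its 3′UTR. Igf2, the fetal growth factor, had 3′UTR reads of 1495 and 7493, but its values per list, 337 and 32.2 rpm against 727 and 39.3 rpm, overlapped. Cdkn1c, an imprinted growth inhibitor, had 53 and 144 CDS reads.

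The direction of these lists was read within the first lists and within the second lists of the stages as well, since depth differed between lists. In the first lists 63.8% of all CDS genes were higher at e18.5 and 28.5% lower, and in the second lists 9.12% and 32.9%. Against that, liver enzymes were higher in 77.0% (first) and 51.1% (second), transcription factors in 91.3% and 28.6%, and erythroid genes lower in 60.0% and 70.0%. Cell cycle genes were lower in 55.1% and 69.4%, and globin and heme genes in 68.8% and 78.9%. Plasma proteins were higher in 49.2% and 49.1%, which is below the share of all genes in the first lists and above it in the second.

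By size of change alone, the largest CDS rises among genes in both tables included Aox3, an aldehyde oxidase of liver, with 6 and 658 reads. They also included Serping1, the complement C1 inhibitor, with 29 and 1077. Ighm, the immunoglobulin M heavy chain of B cells, and Apcs, serum amyloid P, were also in that set of 10. Ugt1a1, which conjugates bilirubin, was among the genes listed only at e18.5. The largest falls held 2 replication-dependent histone genes, Hist1h3g (8025 and 101 reads, log2 -5.97) and Hist1h2ai. In the 3′UTR the genes listed only at e15.5 with the most reads included Mycn, Atad2 and Atad5, and those listed only at e18.5 Acaa2, Apof, Apcs and Vtn, of which the last 3 encode plasma proteins. Serping1, Mycn, Acaa2 and Vtn are members of the gene lists above and were counted there too.

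Seed matches in the 3′UTR were then compared by the share of 3′UTR clusters (18219 at e15.5 and 16150 at e18.5) that held a match of each seed family. Of 297 families with at least 50 such clusters in both tables, 3 were at least 1.5-fold higher in odds (1.01%) and 33 lower (11.1%). Of the 244 families present in every list, 3 were higher (1.23%) and 14 lower (5.74%). A match does not show that this miRNA was the one bound, and a cluster may hold matches of several families.

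miR-122-5p had the largest rise. Its matches lay in 236 of the 3′UTR clusters at e15.5 (1.30%) and 351 at e18.5 (2.17%), a log2 odds ratio of 0.76 (0.52 to 1.0, 95% interval of counting error). It was 0.51 in the first lists and 0.88 in the second, and 0.46 for CDS clusters. It was thus under the 1.5-fold mark in the first lists and in the CDS, and narrowly so (0.58) when genes were counted in place of clusters. The level of miR-122-5p on Ago2 moved the same way. The families of the scarce miRNAs miR-3068-5p (231 and 322 clusters, 0.66) and miR-377-5p (65 and 89, 0.63) were also called higher. Among 3′UTR sites, those in Scd2, a stearoyl-CoA desaturase (chr19:44304396-44304417, plus strand, 42 and 780 reads), and Dnajc13, an endosomal co-chaperone (chr9:104190347-104190368, minus strand, 31 and 672 reads), are shown because they were among the miR-122-5p sites with the most reads at e18.5 and had few at e15.5. Their unscaled reads were 5 and 780 (Scd2) and 8 and 672 (Dnajc13) in the first lists. In the second lists they were 42 and 16, and 31 and 30. Sites in Mccc1 (429 and 850 reads, 2.52-fold higher after scaling) and Gpaa1 (715 and 719, 1.28-fold) were also among those with the most reads.
Scd2 3′UTR, miR-122-5p: ctggatccttacaaACACTCCg
Dnajc13 3′UTR, miR-122-5p: ccttggtgaatttgACACTCCA

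The largest falls were of families whose miRNAs were scarce, led by miR-8094 (199 and 54 clusters), miR-7075-3p (258 and 78) and miR-181b-1-3p (247 and 85). These 3 families were not present in every list, and none had a value in the first lists. Their log2 odds ratios were -1.719, -1.566 and -1.377 in the joined tables. In the second lists they were smaller falls, at -1.004, -0.8498 and -0.6609. How much of these falls came from the missing lists was not tested. Of the 53 families found in every list and reaching 1000 rpm in at least 1 of the joined tables, 3 were called lower, those of the erythroid miRNAs miR-451a and miR-144-3p and that of miR-186-5p, and 1 higher. Matches of miR-451a lay in 203 and 100 clusters (log2 odds ratio -0.85, -1.20 to -0.51), at -0.94 and -0.70 in the first and second lists. Those of miR-144-3p lay in 667 and 392 clusters (-0.61, -0.79 to -0.43), at -0.80 and -0.34, and those of miR-186-5p in 323 and 186 (-0.63, -0.89 to -0.37), at -0.98 and -0.65. Another erythroid family, that of miR-486a-5p, did not share this direction, with 129 and 166 clusters (0.54, 0.21 to 0.88), under the 1.5-fold mark. The seed of miR-101a-3p, which overlaps that of miR-144-3p, was at -0.60, and the family of miR-132-3p and miR-212-3p was at -0.61. In the joined tables the levels of miR-451a and miR-144-3p had differed by less than 2-fold. This did not hold for miR-451a in the second lists, at 3.701% and 0.716%, against 2.996% and 3.325% in the first. For each of these 2 miRNAs, the site with the most reads is shown. Psmd1, a proteasome subunit (chr1:86092019-86092038, plus strand), had 2232 and 138 reads and the RNA helicase gene Ddx5 (chr11:106781986-106782007, minus strand) 2472 and 308. At these 2 sites both lists of e18.5 had fewer unscaled reads than both of e15.5.
Psmd1 3′UTR, miR-144-3p: gatctggaatgtATACTGTA
Ddx5 3′UTR, miR-451a: cagggacttaccagAACGGTTA

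For miR-223-3p, which had the largest rise in level from 1000 rpm, the clusters numbered 259 and 290 (log2 odds ratio 0.34, 0.10 to 0.59), under the 1.5-fold mark. Its single sites went both ways: the one in Frmd4a, a scaffold protein, had 1999 and 85 reads, and that in Rhob, a small GTPase (chr12:8498390-8498411, minus strand), had 37 and 518. The miR-15/16 family, which includes miR-16-5p, had 637 and 595 clusters (0.08), let-7 172 and 162 (0.09), and miR-142a-3p 220 and 219 (0.17). The family of miR-30a-5p was at 0.40, and its site in Gigyf1, a repressor of translation (chr5:137527691-137527712, plus strand), had 541 and 2514 reads. Its sites in Ccne2 (cyclin E2) and Ccdc71l had fewer reads at e18.5, 2652 and 886 and 2339 and 441, while that in the integrin gene Itgb3 had 894 and 1407.
Rhob 3′UTR, miR-223-3p: gggaagacatttgcAACTGACt
Gigyf1 3′UTR, miR-30a-5p: ctgagagtggccaaTGTTTACA

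Level and site share were also set side by side. miR-200b-3p and miR-139-5p were more abundant on Ago2 at e18.5, yet the share of clusters with their matches was lower (log2 odds ratios -0.52 and -0.34). Across the same 53 families, Pearson's r between the log2 change in level and the log2 odds ratio was 0.18 and Spearman's rank correlation 0.22, as a description over families that share libraries and base composition. Base composition of the seed moved with the result. Families with 2 or fewer G or C in the seed had a median log2 odds ratio of -0.26 (55 families, 8 lower), those with 3 or 4 a median of -0.09 (143, with 3 higher and 5 lower), and those with 5 or more a median of 0.10 (46, with 1 lower). The part of the G+C difference in the family changes was not tested.

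**Figure D5:**
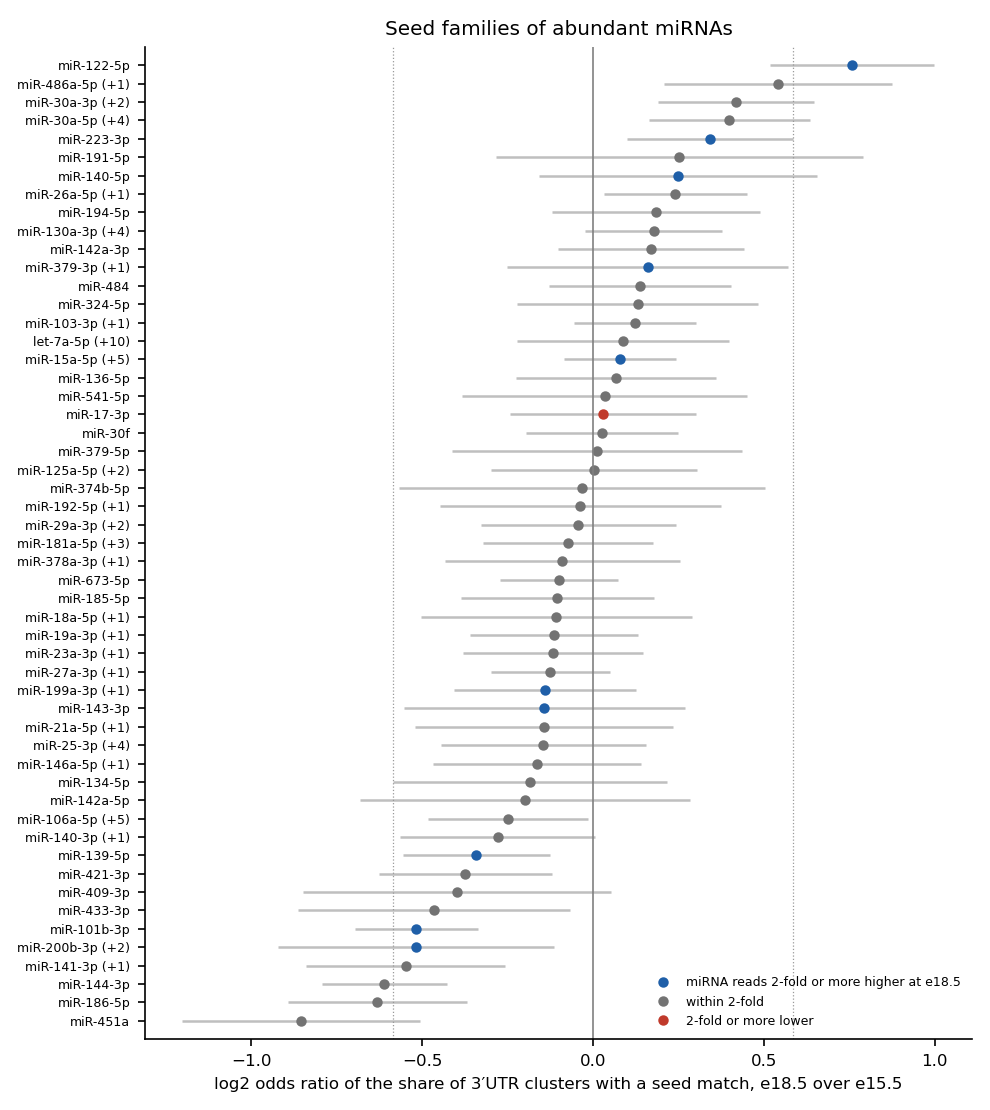
log2 odds ratio, e18.5 over e15.5, of the share of 3′UTR clusters with a seed match for the abundant families (dots, with 95% intervals of counting error as bars and dotted lines at 1.5-fold). miR-122-5p stands at the top at 0.76 and miR-451a at the bottom at -0.85.

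Exact sites were shared by the stages only in part. Of the distinct sites, 54687 were in both tables, which is 21.8% of those at e15.5 and 23.7% of those at e18.5, and for CDS sites the shares were 24.9% and 26.8%. Shared sites had more reads, with medians of 61 and 44 against 26 and 16 for sites in 1 table, and were more conserved (median conservation score of 0.870 against 0.667 at e15.5 and 0.414 at e18.5). The lists within a table overlapped in part as well. At e18.5 the 28135 sites common to its lists were 19.04% of the first and 25.4% of the second. At e15.5 they were 42.7% and 6.41%. A site in 1 table only therefore does not show that the other stage lacks it.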

How the data were processed

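Ago HITS-CLIP of mouse liver at e15.5 and e18.5 was analysed (1 table per stage, with no replicate labelled). The authors trimmed reads with FASTX-Toolkit, mapped them with Bowtie to mm10 and miRBase v19 precursors, joined overlapping reads into clusters and annotated them with refGene and Ensembl genes; software versions are not given in the sources used here, and the submitters' processing notes name mm9 as well as mm10. 2 biological replicates are mentioned in the methods, without saying whether they are the stacked lists, and the study's library lists name a repeat library for e18.5 but none for e15.5. The deposited read column is an unscaled signal, the highest read number within a cluster, with a lowest value of 5. The deposited conservation and folding energy columns are scores. The number attached to each miRNA name was taken as that miRNA's read count in the list. Columns of other samples were not used.

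Entries of both lists were joined, keeping the highest reads per site. Genes were read from the gene column split at commas, and sites within miRNA genes, which held 8542709 of the 16519549 summed reads at e15.5 and 6561076 of 13008703 at e18.5, were left out of the gene comparison but kept in the scaling. A gene not listed was set to 5 reads, so its fold is a bound. miRNAs were compared from 100 reads in either table as log2(rpm + 1), rpm being reads scaled to a total of 1000000. Coordinates are 1-based, and each printed site was checked against GRCm38. With 1 table per stage there was no test, and calls are folds only; PCR reads are not independent molecules, so intervals cover counting error only. Named genes were the 10 largest rises and falls per region among genes in both tables with at least 100 reads, the 5 with the most reads in 1 table only, and list members with at least 100 reads; named miRNAs were the 10 with the most reads and the 10 largest changes each way from 1000 rpm; named families were the 8 largest each way. Fewer are described, and some genes are not reported here. Single sites shown were chosen after their values were seen. Members, lists and rules were chosen with earlier results of these data known. Alternatives were other scalings, read minimums, summed reads, each list alone and other cluster overlaps. The steps ran in Python 3.11.15 with numpy 2.4.6, pandas 2.3.3, scipy 1.17.1, matplotlib 3.10.9, pysam 0.24.0 and bedtools 2.31.1, and were tested on simulated data.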

Additional observations from a re-analysis of the deposited data

How the results depend on the processing

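No paired analysis was possible because each stage had 1 table, and no replicate could be left out. The list used was the choice that mattered most, and the cause was not tested. CDS genes higher at e18.5 were 63.8% in the first lists and 9.12% in the second, 3′UTR genes 62.6% and 7.98%, and higher miRNAs 37.6% in the first. For the gene lists (single-list settings chosen after seeing the data) plasma proteins higher were 49.2% and 49.1%, liver enzymes 51.1% (second), transcription factors 91.3% and 28.6%, endothelial and mesenchymal genes 85.0% and 30.0%, and those lower were 78.9% for globin and heme, 70.0% for erythroid and 69.4% for cell cycle genes (second lists). Fetal growth genes, with 41.2% higher in the joined tables, had 37.5% and 13.3% higher, and there more were lower than higher. Families higher were 3.36% at 10 reads per cluster, 0% in the first lists, 2.56% in the second and 0% when genes replaced clusters. Families lower were 5.13% with at least 7 matched bases, 3.36% at 10 reads, 25.8% and 7.18% in the first and second lists, 18.6% by genes and 5.74% for families in every list. miRNAs lower were 9.30% from 1000 reads. The CDS share difference of 0.10 percentage points was -4.06 at 10 reads, -1.12 and 10.5 in the first and second lists and 0.62 of mRNA clusters alone. That of the 3′UTR was -3.81, -2.50, 3.93 and -2.38, and that of the 5′UTR 1.11 in the second lists and 1.19 of mRNA clusters. Shared sites were 19.02% and 25.6% of e15.5 and e18.5 at 10 reads, 22.8% and 24.3% for clusters overlapping by 1 base, and 15.46% and 16.3% by 50% of each. Of 269 values of 27 single genes under alternatives, 260 kept direction and call, 8 changed call and Top2a alone reversed (0.58, first lists). Of 112 for 19 miRNAs and families 92 were kept, 19 changed call and miR-17-3p reversed (0.088, first lists). Scaling to the median ratio moved the median of all CDS genes from 0.12 to -0.01.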

Other observations

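Of 10 long noncoding RNAs looked up, which were in none of the comparisons above, 2 were at least 2-fold higher at e18.5 in scaled reads (Dleu2 and Gas5) and 2 at least 2-fold lower (Meg3 and Mirg), fewer each way than the 37.0% and 35.6% of all CDS genes. Dleu2, which hosts miR-15 and miR-16, had 8 reads at e15.5 and 66 at e18.5, and Gas5, a host of small nucleolar RNAs, had 48 and 90. Meg3, the maternally expressed RNA of the Dlk1-Dio3 locus, had 15 sites and 206 reads against 3 sites and 30 reads, a 5.41-fold lower level. Mirg, a miRNA host at the same locus, had 12163 reads over 1 site at e15.5 and 7 reads over 2 sites at e18.5. H19, an imprinted fetal transcript, had 124 distinct sites and 12056 reads at e15.5 and 199 sites and 14943 reads at e18.5, a 1.57-fold higher scaled level that is under the mark. The nuclear RNA Malat1 was level after scaling, at 19.7 and 18.9 rpm.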
